A study of Mus musculus with 4 samples.

Results

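The unfolded protein response and the integrated stress response were followed in mammary tumors through 10 genes picked by name. They are the stress sensors Ern1, Eif2ak3 and Atf6, the transcription factors Xbp1, Atf4 and Ddit3, the chaperone gene Hspa5, and the ATF4-linked genes Asns, Trib3 and Chac1. All 10 were among the 23746 gene rows measured in every tumor. All 10 also reached the filter, a level of 1 FPKM or more in 2 or more of the 4 tumors, which left 12752 genes to test. FPKM is a gene's fragment number per kilobase of transcript, scaled to the tumor's total, so that levels can be compared between genes. Comparisons between tumors still depend on the scaling, since the FPKM of all genes summed to 690775 in tumor 26043 and 796031 in tumor 26044.

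PolyA RNA came from 4 primary mammary tumors of female mice. Tumors 26043 and 26044 were WapCre;Rank;Brca1;p53 (triple-mutant), and tumors 26048 and 26050 were WapCre;Brca1;p53 (double-mutant). Both genotypes carried floxed Brca1 and p53 alleles and the WapCreC transgene, whose Cre acts in luminal and in basal cells of the mammary epithelium, so that loss of Brca1 and p53 was shared and the floxed Rank allele set the genotypes apart. The comparison asks how tumors that arose with and without RANK, the receptor that drives expansion of mammary progenitors downstream of progesterone, differ. The age of the mice and the grade of each sequenced tumor are not given in the sources used here. Per the study, triple-mutant females had intermediate-grade tumors and none of high grade, while double-mutant females had both. Grade and genotype therefore cannot be told apart here. Nothing beyond the tumor numbers states that the 2 tumors of a genotype came from separate animals, and p-values then measure only the spread between these samples. In bulk tumor RNA, fewer cells of a type and less RNA per cell cannot be told apart.

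The libraries were first compared with their labels. Tnfrsf11a, which encodes RANK, was at 2.07 and 0.962 FPKM in the triple-mutant tumors and at 10.6 and 11.9 FPKM in the double-mutant tumors, a log2 difference of -2.32 (SE 0.37, n = 2 per genotype, limma adjusted p = 0.225). Brca1 was at 3.26 and 3.28 against 3.84 and 5.69 FPKM, and Trp53 at 15.7 and 87.8 against 150 and 103 FPKM, and the part of a transcript outside the deleted exons can still be read. Tumor 26044 stood apart in its epithelial markers. Its summed FPKM of 6 such markers was 371, against 1826 to 2857 in the other tumors, and its Krt8 level was 98.3 FPKM against 579 to 708. The basal keratins of the same list, named after their values were seen, divided the genotypes instead. Krt5 was at 596 and 114 FPKM in the triple-mutant tumors against 1.15 and 2.06 FPKM in the double-mutant tumors (log2 difference 6.68, limma adjusted p = 0.179), and Krt14 at 611 and 42.5 against 2.08 and 6.99 FPKM. Members are therefore given tumor by tumor throughout.

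The endoplasmic reticulum (ER) folds secreted and membrane proteins, and when unfolded protein builds up there, 3 sensors in its membrane start the unfolded protein response. IRE1alpha, the product of Ern1, cuts a short stretch out of Xbp1 mRNA, so that a potent transcription factor is made. PERK, the product of Eif2ak3, phosphorylates eIF2alpha, which lowers translation in general while the ATF4 protein is made more; because the kinases GCN2, PKR and HRI act on the same site, this arm is also called the integrated stress response. ATF6 moves to the Golgi, is cut there, and switches on chaperone genes such as Hspa5. In the mammary gland, XBP1 is best known for the secretory expansion of the alveolar epithelium.

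The stretch that IRE1alpha removes from Xbp1 mRNA is shown because the deposited values do not separate the cut form from the uncut one. It was read from the GENCODE M21 transcript and lies in exon 4 of 5, in coding sequence, at chr11:5524279-5524304 of GRCm38 (mm10), plus strand. Capitals mark the 26 bases that are removed, which is not a multiple of 3, so the reading frame changes.
Xbp1 exon 4: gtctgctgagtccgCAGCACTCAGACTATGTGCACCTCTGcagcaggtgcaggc
Both forms count toward the same Xbp1 FPKM, and every Xbp1 value that follows is a level of the gene and not of the cut form. Likewise, the cutting of ATF6, the phosphorylation of eIF2alpha and the translation of Atf4 mRNA are not measured by RNA levels.

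Promoter elements were read next, since the chaperone arm and the ATF4 arm are told apart by them. RefSeq windows (GRCm38.p6) from 250 bases before to 50 after the start site were given for 9 of the 10 members. The ER stress element, searched on both strands as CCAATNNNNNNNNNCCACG, was in 39 of 32851 windows of this length (0.119%). Among the members it was found once, in Hspa5, and among the 19 chaperone and folding genes with a window it was found in 8 (42.1%). These 8 were Hspa5, Hsp90b1, Calr, Canx, Pdia6, Dnajc3, Creld2 and Ero1lb, and such genes are textbook targets of the response, which is why they are on the list. In a list, a gene counted if any of its windows held the element, whereas the share over all windows counted each window. The shares are thus not like for like, here and for the next element. Capitals mark the element, and each sequence reads along its gene.
Hspa5, chr2:34772020-34772048, plus strand, element 65 bases before the start site: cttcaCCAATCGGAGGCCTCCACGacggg
Pdia6, chr12:17266486-17266514, plus strand, element 98 bases before the start site: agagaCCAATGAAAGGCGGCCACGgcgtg
Derl3, chr10:75893237-75893265, plus strand, element on the opposite strand: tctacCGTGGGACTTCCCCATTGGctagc
The core of the amino acid response element, which ATF4 binds with C/EBP partners, was searched as TGATGNAA on both strands. At 8 letters it is common, in 1304 of the 32851 windows (3.97%), and it was found in 8 of 23 ATF4 target genes (34.8%), Asns, Chac1 and Trib3 among them.
Asns, chr6:7693214-7693243, minus strand, core 23 bases before the start site: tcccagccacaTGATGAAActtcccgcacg
Chac1, chr2:119351038-119351067, plus strand, core on the opposite strand: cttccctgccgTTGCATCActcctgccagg
Trib3, chr2:152344028-152344057, minus strand, core on the opposite strand and 14 bases past the start site: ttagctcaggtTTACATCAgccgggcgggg
Slc1a4, chr11:20332699-20332728, minus strand, core on the opposite strand: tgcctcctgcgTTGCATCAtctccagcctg
A match describes letters in a window and is not evidence of binding.

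Between genotypes, Xbp1 and Trib3 showed the largest differences of the 10 genes, each more than 3-fold higher in the double-mutant tumors, and Atf6 was also higher in both double-mutant tumors. Ddit3 was the one member higher in both triple-mutant tumors. The genotypes overlapped for the other 6. Among all genes tested, 22.9% were higher in both double-mutant tumors and 21.3% in both triple-mutant tumors, beside 3 and 1 of the 10 members. None of these differences passed the threshold once p-values were adjusted over all genes, and the smallest adjusted p of a member was 0.422. In limma 0 of the 12752 genes (0.0%) had an adjusted p under 0.05, whereas 1252 (9.82%) had an unadjusted p under 0.05, 2 members among them. With 2 tumors against 2, an exact permutation test cannot give a two-sided p below 0.333.

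**Figure D1:**
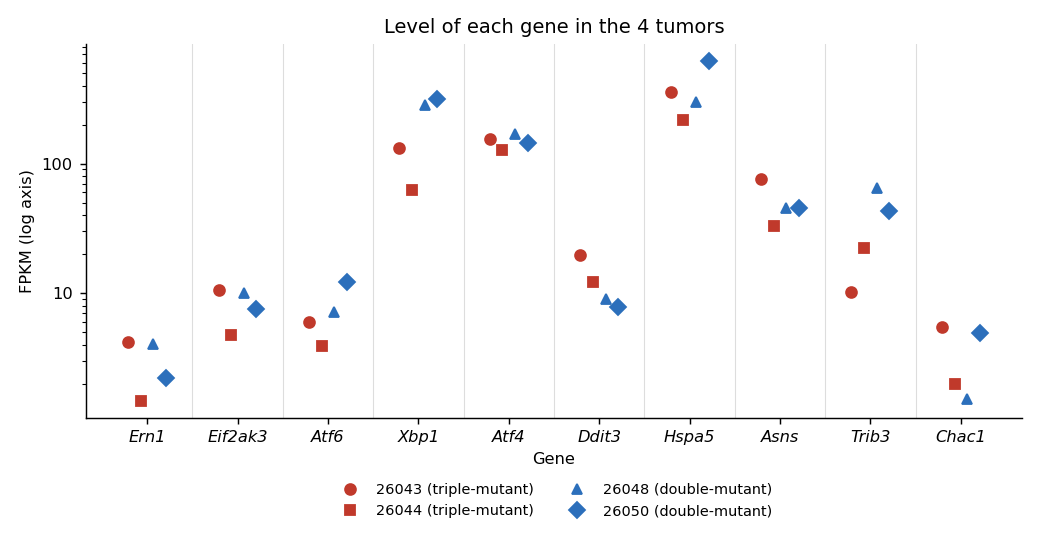
FPKM of each gene in each tumor, on a log axis. Red circles and squares are triple-mutant tumors 26043 and 26044, and blue triangles and diamonds are double-mutant tumors 26048 and 26050. Xbp1 and Trib3 lie higher in both double-mutant tumors and Ddit3 in both triple-mutant tumors, while tumor 26044 is the lowest of the 4 for 7 of the 10 genes, as it is for 39.0% of all genes tested.

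Of the sensors, Ern1 had the lowest levels, between the 9.6th and the 23.4th percentile of the genes tested. Eif2ak3 lay between the 29.9th and the 46.4th, and Atf6 between the 25.3th and the 53.2th percentile. Ern1 (chr11:106397620-106487796) was at 4.16 and 1.48 FPKM in the triple-mutant tumors and at 4.05 and 2.20 FPKM in the double-mutant tumors. Each genotype thus held a tumor with about 4 FPKM and a lower one, and the log2 difference was -0.17 (SE 0.51, limma adjusted p = 0.923). Eif2ak3 (chr6:70844527-70905240) was at 10.7 and 4.77 FPKM against 10.1 and 7.59 FPKM, and again the triple-mutant tumors lay on either side of the double-mutant ones. Atf6 (chr1:170704457-170867771) was at 6.01 and 3.92 FPKM in the triple-mutant tumors against 7.13 and 12.2 FPKM in the double-mutant tumors. The Atf6 groups did not overlap, but the gap between the nearest tumors of the genotypes was smaller than the gap within either genotype. Its log2 difference was -0.82 (SE 0.41, limma adjusted p = 0.575), and the median difference of the 36 genes tested within 1 Mb of it was -0.40.

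Of the other genes for sensors, the site proteases that cut ATF6 and the eIF2alpha kinases, 6 were tested. Atf6b, the paralog of Atf6, was higher in both triple-mutant tumors by a small margin, at 51.1 and 48.8 against 45.3 and 45.0 FPKM. Mbtps2, the site-2 protease, was at 5.27 and 5.20 FPKM against 6.96 and 13.1 FPKM, and Eif2ak4, which encodes the amino acid sensor GCN2, at 6.15 and 5.26 FPKM against 6.62 and 7.22 FPKM, both higher in the double-mutant tumors. Of these genes 5 were lowest in tumor 26044, as were 39.0% of all genes tested. None had an unadjusted p under 0.05 in limma.

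Xbp1 (chr11:5520967-5525872) encodes the factor that takes its active form after the IRE1alpha cut, and it drives genes of ER expansion, protein folding and degradation. Its level was 132 and 62.7 FPKM in the triple-mutant tumors and 284 and 315 FPKM in the double-mutant tumors. The double-mutant tumors lay close together and above both triple-mutant tumors, which differed from each other 2.1-fold. On the log2(FPKM + 1) scale the difference was -1.71 (SE 0.43, 3.27-fold, unadjusted p = 0.0129, limma adjusted p = 0.422). The median difference of the 35 genes tested within 1 Mb of Xbp1 was -0.07. Leaving out each tumor in turn kept the double-mutant side higher, with log2 differences from -2.24 to -1.18.

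Markers of several cell types moved with Xbp1. Of 5 alveolar milk genes, 4 were higher in both double-mutant tumors, and these genes together reached 166 and 20.7 FPKM in tumors 26043 and 26044 against 1251 and 5926 FPKM in tumors 26048 and 26050. Lalba, the milk protein alpha-lactalbumin, was at 7.27 and 2.64 FPKM against 499 and 3813 FPKM. The luminal keratin Krt8 was at 579 and 98.3 FPKM against 708 and 701 FPKM, whereas the basal keratins Krt5 and Krt14 had their higher levels in both triple-mutant tumors, as given above. Macrophage and fibroblast markers were also higher in both double-mutant tumors for 4 of 6 and 3 of 5 genes. For the other 2 macrophage markers the genotypes overlapped. Of the other fibroblast markers, 1 overlapped and 1 was higher in both triple-mutant tumors. Across all genes tested, 22.9% were higher in both double-mutant tumors and 21.3% in both triple-mutant tumors. Marker sums were 237 and 159 against 568 and 342 FPKM for macrophages and 173 and 97.9 against 746 and 342 FPKM for fibroblasts. Conversely, 4 of 5 hormone-sensing luminal markers were higher in both triple-mutant tumors, with sums of 114 and 24.6 against 12.2 and 11 FPKM. Among markers of plasma and B cells, of which plasma cells also express Xbp1 strongly, Igj, Tnfrsf17, Cd79a and Ms4a1 stayed under 1 FPKM in every tumor. Irf4 and Cd79b passed 1 FPKM in a single tumor each, at 1.07 and 1.22 FPKM, and Prdm1 was at 1.12 and 5.50 against 0.808 and 0.694 FPKM. Prdm1 lies on chromosome 10, and its neighbors were high in tumor 26044 as well. Against the mean of the other tumors, Prdm1 was higher there by 1.801 log2 units. The median of the 8 genes tested within 1 Mb was higher by 2.997. Whether the Prdm1 level in tumor 26044 reflects plasma cells was not tested. Sdc1, which epithelial cells also express, was at 34.5 to 130 FPKM. The part of cell makeup in the Xbp1 difference was not tested.

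Atf4 (chr15:80255184-80257541), the central factor of the integrated stress response, was the steadiest of the 10 genes. Its level was 155 and 128 FPKM in the triple-mutant tumors and 169 and 144 FPKM in the double-mutant tumors, always between the 94.0th and the 95.5th percentile of the genes tested. The log2 difference was -0.14 (SE 0.28, limma adjusted p = 0.875). Because ATF4 is regulated mainly at translation, the level of its mRNA does not give the level of the protein.

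Ddit3 (chr10:127290793-127296288) encodes CHOP, a factor that ATF4 induces and that is linked to cell death under lasting ER stress. It was at 19.5 and 12.2 FPKM in the triple-mutant tumors and at 9.07 and 7.83 FPKM in the double-mutant tumors. Both triple-mutant tumors lay above both double-mutant tumors, with the wider gap within the triple-mutant pair. The log2 difference was 0.80 (SE 0.36, 1.74-fold, unadjusted p = 0.0803, limma adjusted p = 0.543), and the median of the 39 genes tested within 1 Mb was 0.07. The end of the Ddit3 span overlaps Mars on the opposite strand. The libraries marked strand, but whether the FPKM estimate used it is not given in the sources used here.

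**Figure D2:**
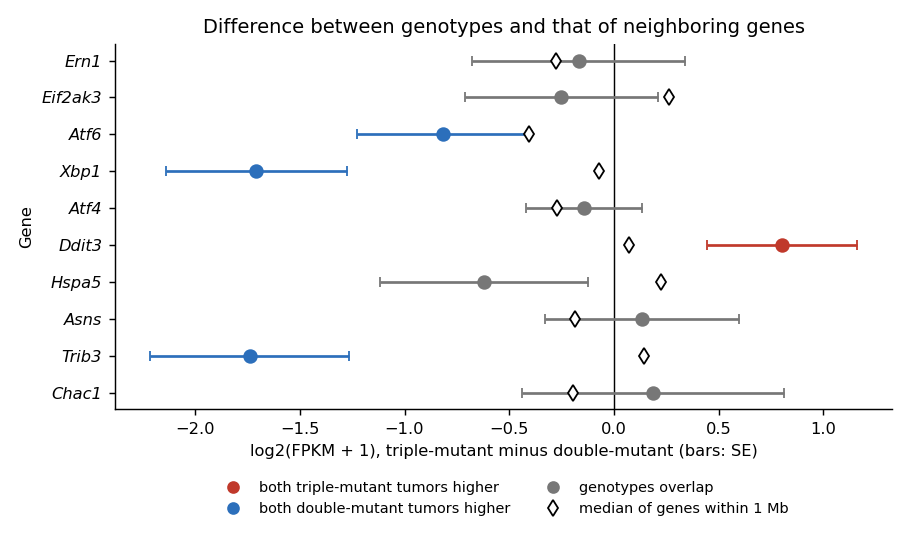
log2 difference between genotypes for each gene, triple-mutant minus double-mutant on the log2(FPKM + 1) scale. Points are limma estimates with their standard errors, colored by whether and how the genotypes separate, and open diamonds are the median difference of genes tested within 1 Mb. Xbp1, Trib3 and Ddit3 stand away from their neighborhoods, whereas the neighbors of Atf6 lean the same way as Atf6 itself.

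Of the other stress transcription factors, 9 were tested. Atf5, which like Atf4 is held back at translation until stress, was higher in both triple-mutant tumors, at 101 and 76.5 against 55.4 and 40.0 FPKM (log2 difference 0.89, SE 0.32, limma adjusted p = 0.503). Creb3l2 followed the same direction, at 23.5 and 22.7 against 14.5 and 6.77 FPKM. Creb3l1, an ER-bound factor of secretory cells, went the other way, at 2.57 and 0.861 FPKM against 7.10 and 7.03 FPKM (log2 difference -1.65, SE 0.43, limma adjusted p = 0.44). These 3 were the list's genes with an unadjusted p under 0.05. The direction thus differed among the factors, and 8 of the 9 were higher in tumor 26043 than in tumor 26044, as were 61.3% of all genes tested.

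Hspa5 (chr2:34772090-34776529) encodes BiP, the chaperone that holds the sensors inactive, and its transcription is the usual readout of the unfolded protein response. It was the most abundant of the 10 genes in every tumor, at 359 and 217 FPKM in the triple-mutant tumors and at 298 and 619 FPKM in the double-mutant tumors. Tumor 26050 was highest and tumor 26044 lowest, and the other triple-mutant tumor lay above the other double-mutant tumor. The log2 difference between genotypes was -0.62 (SE 0.50, limma adjusted p = 0.697), whereas the double-mutant pair alone differed by 1.05. It was -0.09 without tumor 26050 and -1.15 without tumor 26048. Hspa5 overlapped between the genotypes where Xbp1 separated them. The Hspa5 to Xbp1 ratio of FPKM was 2.73 and 3.46 with the triple-mutant genotype but 1.05 and 1.96 with the double-mutant genotype.

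Like Hspa5, many of the other 21 ER chaperones and folding enzymes were high in tumor 26050 and low in tumor 26044. For 12 of them (57.1%) tumor 26050 was highest and tumor 26044 lowest, a pattern found in 14.7% of all genes tested, and 19 of the 21 were higher in tumor 26043 than in tumor 26044. These orders of tumors were picked after the values were seen, so the shares describe the list and are not a test. The summed FPKM of the list, with Hspa5, came to 3144 in tumor 26043, 2244 in tumor 26044, 2780 in tumor 26048 and 4185 in tumor 26050. The genotypes overlapped for 18 of the 21 and separated for 3, whereas they separated for 44.3% of all genes tested. The median log2 difference was -0.37, beside -0.02 for all genes tested, and it was -0.08 without tumor 26044, -0.05 without tumor 26050, -0.65 without tumor 26043 and -0.62 without tumor 26048. Under TPM, quantile and median-of-ratios scaling, 11, 13 and 10 of the 21 genes had tumor 26050 highest and tumor 26044 lowest.

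Among these genes, Pdia6, a protein disulfide isomerase, was the clearest between genotypes, at 110 and 73.4 FPKM against 169 and 291 FPKM (log2 difference -1.29, SE 0.41, limma adjusted p = 0.48). Dnajb9, a co-chaperone of BiP and a classical XBP1 target, was at 6.34 and 4.60 FPKM against 10.7 and 7.84 FPKM. For both genes the neighbors leaned the same way. The median log2 difference within 1 Mb was -0.765 over the 8 genes tested near Pdia6. It was -1.27 over the 2 near Dnajb9, whose own difference was -0.667. Fkbp2 alone was higher in both triple-mutant tumors, at 129 and 140 FPKM against 72.8 and 93.2 FPKM. Hsp90b1 and Calr, named after their values were seen as abundant partners of BiP, were at 334, 222, 228 and 470 FPKM and at 435, 291, 383 and 548 FPKM in tumors 26043, 26044, 26048 and 26050. Of the 8 genes with an ER stress element in the window, Hspa5 included, 6 had tumor 26050 highest and tumor 26044 lowest, and of the 11 without it, 5 did.

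Trib3 (chr2:152337425-152344060) encodes a pseudokinase induced by ATF4 and CHOP that feeds back on ATF4. It was at 10.2 and 22.3 FPKM in the triple-mutant tumors and at 64.9 and 43.1 FPKM in the double-mutant tumors. Both double-mutant tumors lay above both triple-mutant tumors, although each pair differed within itself. The log2 difference was -1.74 (SE 0.48, 3.34-fold, unadjusted p = 0.0172, limma adjusted p = 0.452), and the median of the 29 genes tested within 1 Mb was 0.14. Leaving out each tumor in turn gave log2 differences from -2.27 to -1.21. Trib3 was the only member higher in tumor 26044 than in tumor 26043.

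Trib3 and Ddit3, which usually rise together, went opposite ways here. The Trib3 to Ddit3 ratio of FPKM was 0.522 and 1.83 with the triple-mutant genotype but 7.15 and 5.51 with the double-mutant genotype.

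Asns (chr6:7675171-7693182), the asparagine synthetase gene, was at 75.5 and 32.8 FPKM in the triple-mutant tumors and at 45.4 and 45.3 FPKM in the double-mutant tumors. The double-mutant tumors were nearly equal and lay between the triple-mutant ones, for a log2 difference of 0.13 (SE 0.46, limma adjusted p = 0.932). Chac1 (chr2:119351242-119354327), which encodes a glutathione-degrading enzyme, was at 5.45 and 1.98 FPKM against 1.52 and 4.90 FPKM. Each genotype again held a high and a low tumor, and the log2 difference was 0.19 (SE 0.62, limma adjusted p = 0.93). Trib3, Asns and Chac1 share the core of the amino acid response element shown above and did not share an order of tumors.

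The other ATF4 target genes leaned the opposite way from Trib3. Of the 21 tested, 6 were higher in both triple-mutant tumors (28.6%) and 2 in both double-mutant tumors (9.52%), and the median log2 difference was 0.29. Across all genes tested these shares were 21.3% and 22.9%. The glycine transporter Slc6a9 was at 9.89 and 12.4 FPKM against 6.24 and 1.64 FPKM. The neutral amino acid transporter Slc1a4 was at 8.84 and 21.4 FPKM against 5.15 and 4.24 FPKM (log2 difference 1.39, SE 0.50, limma adjusted p = 0.5). The serine synthesis gene Psph was at 65.9 and 44.6 FPKM against 12.2 and 35.4 FPKM. The remaining 3 were Sesn2, Slc7a1 and Pycr1, and the 2 on the double-mutant side were Shmt2 and Eif4ebp1. No gene of the list passed the adjusted threshold. Without tumor 26044 the median was -0.03, without tumor 26048 it was 0.01, and it was 0.59 without tumor 26043 and 0.51 without tumor 26050.

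The chaperone arm and the ATF4 arm ranked tumor 26044 at opposite ends. Only 5 of the 21 ATF4 target genes (23.8%) were higher in tumor 26043 than in tumor 26044, against 19 of 21 chaperones and folding enzymes (90.5%) and 61.3% of all genes tested. None of the ATF4 targets had tumor 26050 highest and tumor 26044 lowest. Both orders of tumors were picked after the values were seen, so these shares are a description. Relative to each gene's mean over the 4 tumors, the median of the chaperones was -0.46 log2 units in tumor 26044 and 0.46 in tumor 26050, and that of the ATF4 targets was 0.40 and 0.11. Median-of-ratios scaling left 5 ATF4 targets and 19 chaperones higher in tumor 26043, with 50.7% of all genes on that side. Under TPM scaling 6 and 20 were on that side, with 71.5% of all genes, and under quantile normalization 4 and 18, with 48.7%. The members themselves did not follow the ATF4 list, since 9 of 10 were higher in tumor 26043 than in tumor 26044. The 8 hypoxia markers summed to 207 FPKM in tumor 26043, 365 FPKM in tumors 26044 and 26048, and 314 FPKM in tumor 26050. Per gene, tumors 26044 and 26048 differed, since 6 of the 8 were higher in tumor 26044 and the median relative to the 4-tumor mean was 0.62 there and -0.33 in tumor 26048. The part of hypoxia and of the lower epithelial marker sum in these orders was not tested.

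**Figure D3:**
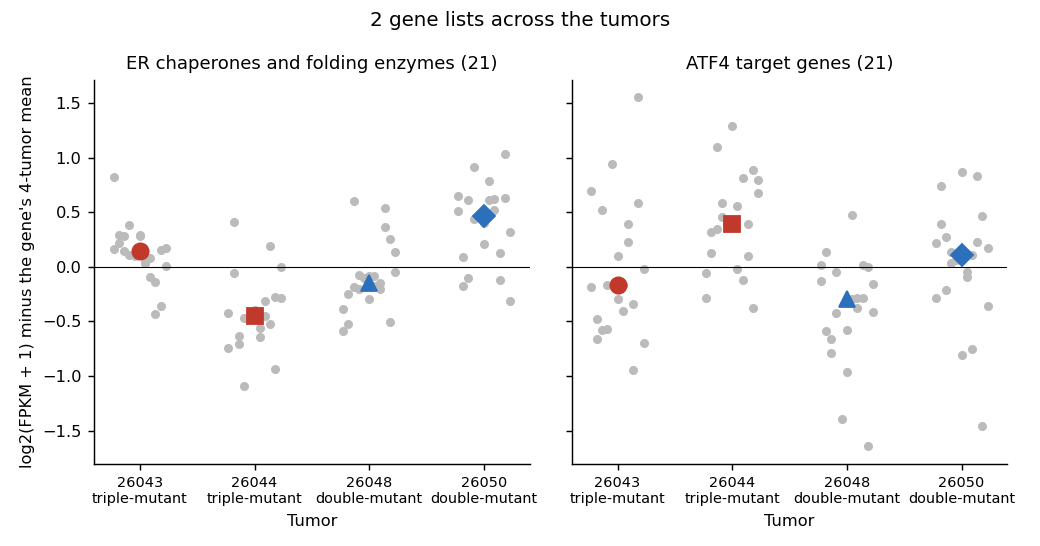
log2(FPKM + 1) of each chaperone or folding gene (left) and each ATF4 target gene (right), minus the gene's mean over the 4 tumors; gray dots are genes and large symbols are medians, red for triple-mutant and blue for double-mutant tumors. The chaperone median is lowest in tumor 26044 and highest in tumor 26050, whereas the ATF4 target median is highest in tumor 26044.

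Genes of ER-associated degradation, which hand misfolded proteins to the proteasome, separated the genotypes no more often than other genes. Of 19 tested, 3 (15.8%) were higher in both triple-mutant tumors and 4 (21.1%) in both double-mutant tumors, beside 21.3% and 22.9% of all genes. Under TPM scaling 4 of the 19 separated in either direction, beside 41.0% of all genes. The largest difference was that of Derl3, a derlin gene of secretory cells with an ER stress element in its window, at 8.72 and 100 FPKM in the triple-mutant tumors against 4.0 and 4.49 FPKM in the double-mutant tumors. Most of the difference came from tumor 26044. Ube2g2, a ubiquitin-conjugating enzyme gene, was likewise high there, at 50.6 and 133 FPKM against 32.9 and 40.0 FPKM. Edem3 was on the double-mutant side, at 8.69 and 5.0 against 9.52 and 11.7 FPKM.

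Sec63, of the translocation list, had the same outlying tumor. Its level was 28.0 and 238 FPKM in the triple-mutant tumors against 14.9 and 18.2 FPKM in the double-mutant tumors. Derl3, Ube2g2 and Sec63 all lie on chromosome 10, and in each case neighboring genes were high in tumor 26044 as well. Against the mean of the other 3 tumors, the median log2 level of genes within 1 Mb was higher in tumor 26044 by 2.1 at Derl3, 2.64 at Ube2g2 and 2.94 at Sec63, while the genes themselves were higher by 3.97, 1.68 and 3.53. Ddit3, the member on the same chromosome, lacked this feature, at 0.11 for the gene and 0.18 for its neighborhood.

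Of the 27 genes of translocation and N-glycosylation, 5 (18.5%) were higher in both triple-mutant and 7 (25.9%) in both double-mutant tumors. These shares were 21.3% and 22.9% over all genes tested, and the median log2 difference of the list was 0.00. Dad1, a subunit of the oligosaccharyltransferase, was at 434 and 476 FPKM against 176 and 278 FPKM, and Spcs3, of the signal peptidase, at 25.0 and 8.56 against 26.9 and 52.4 FPKM. Of 16 genes of ER-to-Golgi transport, 5 (31.2%) were higher on the triple-mutant side and 4 (25.0%) on the double-mutant side, with a median of -0.01. Sec31a, of the COPII coat, was at 96.1 and 61.7 against 49.0 and 47.8 FPKM, and the KDEL receptor Kdelr3 at 11.5 and 25.9 FPKM against 10.7 and 9.30 FPKM. Mia3, which loads bulky cargo such as collagen, was at 14.4 and 10.4 against 14.8 and 27.4 FPKM.

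Of 10 genes for eIF2, its exchange factor eIF2B and the phosphatase subunits, 3 were higher in both double-mutant tumors (22.9% of all genes) and none in both triple-mutant tumors (21.3% of all genes). Ppp1r15b, the constitutive subunit that reverses eIF2alpha phosphorylation, was at 28.3 and 14.4 FPKM against 53 and 40.4 FPKM (log2 difference -1.15, SE 0.42, limma adjusted p = 0.506). Eif2s3x, the gamma subunit of eIF2, was at 76.5 and 71.6 FPKM against 109 and 172 FPKM, and Eif2s1, which encodes eIF2alpha itself, at 19.1 and 16.3 FPKM against 21.3 and 44.7 FPKM. Of 7 cell death genes linked to ER stress, only Tnfrsf10b separated the genotypes, beside 44.3% of all genes tested. Its level was 5.65 and 5.02 FPKM against 6.85 and 8.78 FPKM. The CHOP-induced death receptor was thus lower where Ddit3 was higher, by a log2 difference of -0.47 (SE 0.32, limma adjusted p = 0.649).

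**Figure D4:**
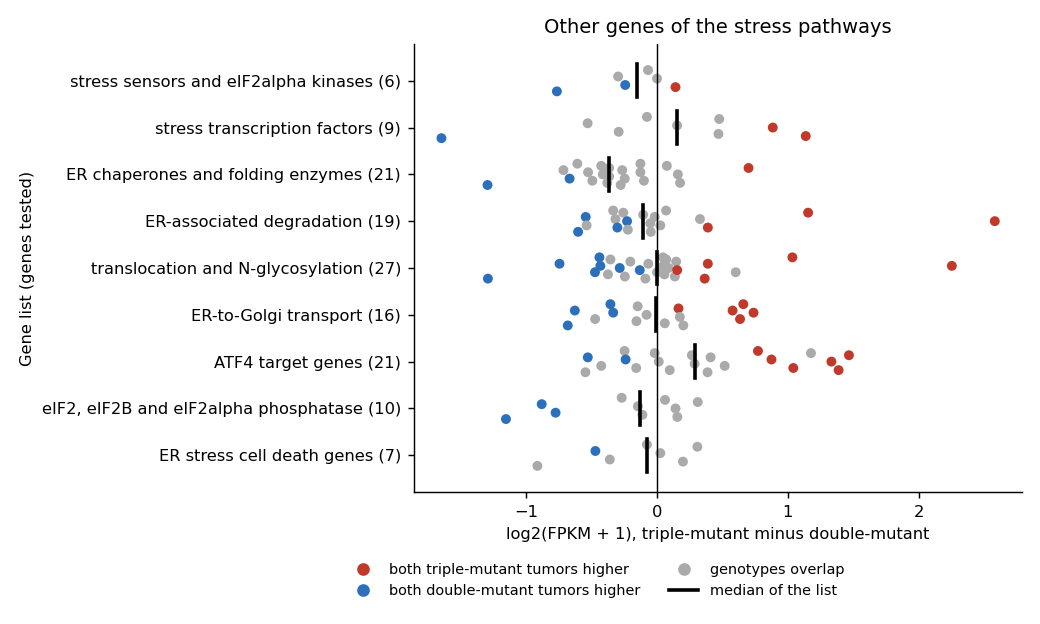
log2 difference between genotypes, triple-mutant minus double-mutant on the log2(FPKM + 1) scale, for the tested genes of 9 lists other than the 10 named genes. Each dot is a gene, colored by whether both tumors of a genotype lie above both of the other, and black bars are medians. The chaperone genes gather left of 0 with mostly overlapping genotypes, the ATF4 target genes lean right, and Derl3 and Sec63 are the dots farthest right.

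Counted over all 9 lists, 136 of the 140 genes found other than the members were tested. Of these 26 were higher in both double-mutant tumors (19.1%) and 23 in both triple-mutant tumors (16.9%), below the 22.9% and 21.3% of all genes. The 10 members stood at 3 and 1. Their median log2 difference was -0.21, beside -0.08 for the other listed genes and -0.02 for all genes tested. It was -0.73 without tumor 26043 and 0.13 without tumor 26044, so the tumor left out decided its sign. Of the 12752 genes, none in limma passed the adjusted threshold, and the smallest adjusted p of the listed pathway genes other than the members was 0.44.

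The members varied more between the triple-mutant tumors than most genes did. The median absolute log2 gap between tumors 26043 and 26044 was 1.03 over the 10 members and 0.45 over all genes, and between the double-mutant tumors it was 0.47 and 0.36. For 4 members, Atf6, Xbp1, Ddit3 and Trib3, the difference between genotypes exceeded the gap within both pairs. They are the 4 members whose genotypes do not overlap, which held for 44.3% of all genes tested. The share of all genes that met the gap criterion was not counted. Tumor 26050 highest with tumor 26044 lowest held for 3 members, Xbp1, Hspa5 and Atf6, and for 14.7% of all genes tested. Cufflinks' own interval is a further limit, because 23 of the 40 member values lay outside it, with Atf6, Atf4 and Trib3 outside it in every tumor and Ern1, Eif2ak3 and Ddit3 in none. Trib3 at the midpoint of its interval was 6.79 and 14.5 FPKM in the triple-mutant tumors against 44.8 and 28.6 FPKM in the double-mutant tumors, and the order of the tumors stayed the same.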

How the data were processed

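Tumors were grouped by the genotype in their labels. Per the labels, polyA RNA was selected and dUTP libraries were made with the TruSeq protocol, and the submitters' processing notes name TopHat2 2.0.10, Bowtie 0.12.9, HTSeq, Cufflinks 2.1.1, DESeq2 1.6.2 and build mm10. The authors deposited Cufflinks FPKM with interval bounds for each gene and tumor. These are not read counts. The counts behind the study's DESeq2 test were not analysed here, and the depth of each tumor is unknown.

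Tables were joined on identifier and locus. Genes that reached 1 FPKM in 2 or more tumors were fitted as log2(FPKM + 1) with limma 3.58.1 in R 4.3.3 (lmFit, eBayes with trend). Differences are triple-mutant minus double-mutant, and p-values were adjusted over all genes tested by the Benjamini-Hochberg method with a threshold of 0.05. A difference on this scale understates the change of low genes. The fit was also run on simulated data with the same independent noise for every gene and tumor. That run therefore cannot show how the fit handles an outlying tumor or genes of unequal spread. With 2 tumors per genotype and no stated depth, the standard errors of the fit carry the precision, and Cufflinks' interval covers only the measurement of a tumor.

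The members, the 9 pathway lists and the marker lists were chosen with earlier results of these data known, so they carry counts and medians and no test of a list. Named were all members, the targeted genes, in each list the 3 other genes of largest difference with separated genotypes, and the most abundant markers. Further names were chosen after their values were seen. Vimp and Mzb1 were not found under these names. Markers not named are given only through their list's sum or count, and 1 listed item is not reported here at all. Other marker lists gave summed FPKM, over the 4 tumors, of 159 to 568 (macrophages), 0.962 to 3.73 (T cells), 97.9 to 746 (fibroblasts), 19.0 to 64.0 (endothelium), 7.58 to 1390 (adipocytes), 2.05 to 33.4 (skeletal muscle) and 233 to 537 (immediate-early genes). The highest sum was that of tumor 26044 for endothelium, of tumor 26048 for adipocytes and of tumor 26050 for skeletal muscle. Alternatives covered pseudocount, filter, scaling, moderation, interval midpoints, neighbors within 1 Mb and each tumor left out. Python 3.11.15 was used for tables and plots.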

Additional observations from a re-analysis of the deposited data

How the results depend on the processing

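The study describes the triple-mutant females as littermates of the double-mutant ones. The sample titles give only tumor numbers and genotypes and no litter, so no paired analysis was possible. The count of genes past the adjusted threshold was 0 in limma and under each tumor left out, but 6 with quantile normalization, 5 without the trend and 1 with interval midpoints, no member among them. The count of members whose genotypes separate was 4 (44.3% of all genes), 5 under median-of-ratios scaling, and 5 to 9 with a tumor left out, where 67.0% to 78.3% of all genes separate because a genotype then has 1 tumor. Their median log2 difference of -0.21 ranged from -0.73 to 0.13 with a tumor left out and was -0.44 under a filter of 5 FPKM, which removed 2 members. Xbp1, Trib3, Atf6, Ddit3 and Hspa5 kept their direction under every alternative, though with a tumor left out Hspa5 ranged from -1.15 to -0.09 and Atf6 from -1.16 to -0.47. With a tumor left out, Ern1 ranged from -0.70 to 0.36 (positive without tumor 26044, and 0.16 without tumor 26048), Eif2ak3 from -0.76 to 0.26 (positive without tumor 26044), Asns from -0.45 to 0.72 (negative without tumor 26043) and Chac1 from -0.43 to 0.80 (negative without tumor 26048, and -0.37 without tumor 26043). After the neighbors' median was subtracted, Ern1 was at 0.11 and Atf4 at 0.13, both reversed. The cause was not tested. With a tumor left out the lone tumor of a genotype is assumed to vary like the others. The counts of the lists and of the orders of tumors were repeated under the same alternatives after the data were seen.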
